A study of Mus musculus with 64 samples.

Results

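The 40 genes described here carry out mitosis, from chromosome condensation through the kinetochore and spindle to the cut that separates the daughter cells. They were chosen by gene symbol from a list of 40, and all 40 were found among the 20637 genes of the deposited table and passed the filter on low values in every fit. They were read in 64 RNA libraries from hearts of CD1 mice, in 16 groups of 4 libraries that combine 4 cell populations, both ages at surgery and both operations.

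Surgery was done on postnatal day 1 (P1) or day 56 (P56, adult males of 8 weeks), either as a sham operation or as a myocardial infarction (MI), made by tying off the left anterior descending artery for good, and cells were taken 3 days later. Cardiomyocytes were the bottom layer of a Percoll gradient. The other populations were sorted by surface antigens as fibroblasts (CD90+, CD45- and CD31-), leukocytes (CD45+) and endothelial cells (CD31+ and CD45-). Neonatal ventricles, from mice whose sex is not stated, went into pools of 6 that were digested on a stirrer, and adult hearts were digested by Langendorff perfusion, so age, isolation and sex cannot be told apart. The labels do not say that the 4 libraries of a group came from separate animals or pools, so p-values measure the spread between libraries, which may be technical.

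Values are normalised read counts (CPM) from which whole reads were recovered, 9.59 to 27.5 M (1e6) per library with a median of 20.6 M. A level of 3 reads was 0.102 to 0.409 CPM, and such floors cover counting error only. As scaled by the authors, the CPM of a library do not sum to 1e6. They summed to 1930645 to 2627530 in adult sham cardiomyocytes, against 897315 to 1380749 in adult sham leukocytes and 895200 to 1265644 in neonatal sham cardiomyocytes. Levels compared between such groups rest on that scaling. In 7 libraries more than 5% of the reads were 18S ribosomal RNA. The mean summed level of each marker list was highest in its own population in every age and operation, but leukocytes after sham also held cardiomyocyte RNA: 10 cardiomyocyte markers summed to 71875 to 198303 CPM in adult sham leukocytes, against 142300 to 177930 CPM in adult sham cardiomyocytes. In neonatal sham leukocytes they summed to 16879 to 22624 CPM, against 36348 to 62178 CPM in cardiomyocytes.

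Mitotic genes are transcribed mainly in G2 and M phase, so their RNA marks cells that are passing through the cycle. Many of them are held silent in resting cells by the DREAM complex and are switched on by B-MYB and FOXM1, through a short promoter element called the cell cycle genes homology region (CHR) and through CCAAT boxes bound by NF-Y. Mouse cardiomyocytes still divide around birth, and most stop doing so early in postnatal life. In bulk RNA, fewer dividing cells and less RNA per cell cannot be told apart.

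Promoters are shown first because the members moved together and because the elements named above can be read in them. RefSeq (GRCm38.p6) gave a window from 250 bases before to 50 after the annotated start for 32 of the 40 genes, and both strands were searched. The letters TTTGAA, a form of the CHR, were found in 25 of the 32 genes (78.1%), against 20.2% of 27025 genes with such a window. The other form, TTTAAA, was found in 9 (28.1%, against 14.9%) and CCAAT in 23 (71.9%, against 41.1%). Either CHR form together with CCAAT in a single window was found in 22 genes (68.8%, against 12.2%). The E2F motif TTTGGCGC or TTTCCCGC was found in 1 (3.12%, against 1.8%). A match describes the letters only and is not a site shown to be bound.

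The 250 bases before the start are printed for 5 genes, 5′ to 3′ on the strand of the gene, with CHR and CCAAT matches in capitals (TTCAAA and ATTGG are the same motifs read on the other strand). Plk1, Cdc20 and Birc5 are shown as regulators of mitotic entry, anaphase and the passenger complex. Top2a and Cenpa were chosen after their values were seen, as the gene with the deepest fall with age in cardiomyocytes and the gene that stood apart from it.

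Plk1 (chr7:122159185-122159434, plus strand): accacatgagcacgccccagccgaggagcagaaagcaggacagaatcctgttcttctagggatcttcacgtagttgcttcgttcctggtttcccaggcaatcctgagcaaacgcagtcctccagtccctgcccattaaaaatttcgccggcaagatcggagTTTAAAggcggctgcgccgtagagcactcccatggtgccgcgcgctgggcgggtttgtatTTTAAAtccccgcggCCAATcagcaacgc

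Cdc20 (chr4:118437344-118437593, minus strand): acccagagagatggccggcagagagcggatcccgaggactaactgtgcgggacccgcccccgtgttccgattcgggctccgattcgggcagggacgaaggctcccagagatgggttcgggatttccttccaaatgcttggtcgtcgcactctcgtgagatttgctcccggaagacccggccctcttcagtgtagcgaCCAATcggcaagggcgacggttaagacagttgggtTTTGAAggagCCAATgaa

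Birc5 (chr11:117848987-117849236, plus strand): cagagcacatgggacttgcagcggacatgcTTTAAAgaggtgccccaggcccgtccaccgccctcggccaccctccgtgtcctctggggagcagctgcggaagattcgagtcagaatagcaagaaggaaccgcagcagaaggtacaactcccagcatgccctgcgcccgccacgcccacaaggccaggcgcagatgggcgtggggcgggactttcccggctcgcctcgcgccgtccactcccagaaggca

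Top2a (chr11:99024190-99024439, minus strand): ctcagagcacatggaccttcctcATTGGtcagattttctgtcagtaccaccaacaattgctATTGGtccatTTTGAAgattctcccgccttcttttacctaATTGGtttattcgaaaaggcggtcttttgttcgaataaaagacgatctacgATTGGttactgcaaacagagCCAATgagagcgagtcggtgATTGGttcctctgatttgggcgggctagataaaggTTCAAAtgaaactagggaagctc

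Cenpa (chr5:30666636-30666885, plus strand): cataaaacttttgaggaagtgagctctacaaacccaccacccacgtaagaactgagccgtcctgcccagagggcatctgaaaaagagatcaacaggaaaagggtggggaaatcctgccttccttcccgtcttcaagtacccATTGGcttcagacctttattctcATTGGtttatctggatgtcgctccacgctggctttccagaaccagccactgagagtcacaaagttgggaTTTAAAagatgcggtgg

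Plk1 and Cdc20 carry CHR and CCAAT letters side by side just before the start, and Top2a carries 6 CCAAT boxes. Birc5 has a CHR match far upstream and no CCAAT box. Cenpa has the same kinds of letters as the others, a CHR match and a pair of CCAAT boxes before its start and another CHR match after it. No CHR letters were found in the windows of Bub1, Mad2l1, Nuf2, Nusap1 and Mybl2.

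**Figure D1:**
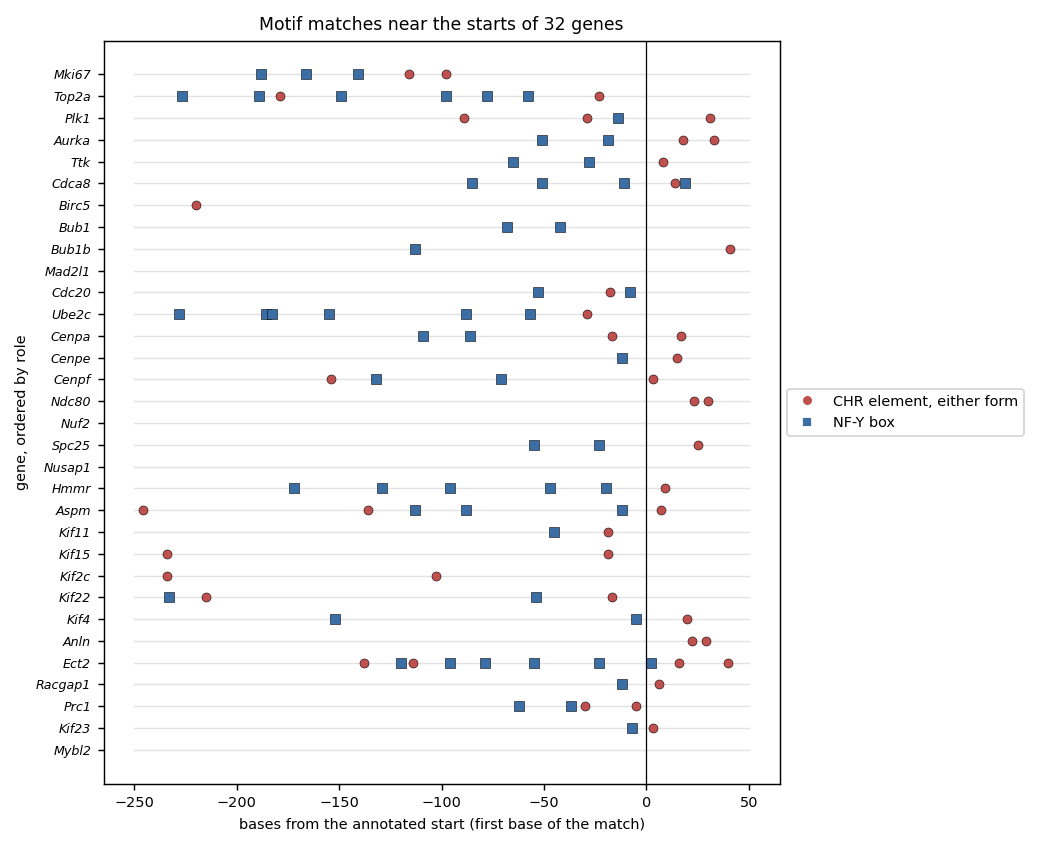
Matches to either CHR form (red circles) and to the CCAAT box of NF-Y (blue squares) for the 32 genes with a RefSeq window, plotted by the distance of the match from the annotated start in bases. CHR matches are present in 27 of the 32 genes, many of them close to the start, and CCAAT boxes lie mostly before the start.

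In the neonatal sham heart all 4 populations carried these transcripts at high levels. Summed over the 40 genes, the level was 3010 ± 249 CPM in cardiomyocytes (SD, n = 4), 2670 ± 333 in fibroblasts, 2674 ± 302 in endothelial cells and 1833 ± 209 in leukocytes. The cardiomyocyte and leukocyte libraries also held endothelial markers, at 3083 ± 655 and 3881 ± 298 CPM, against 9297 ± 799 in endothelial libraries. Fibroblast markers summed there to 4610 ± 1521 and 4186 ± 845 CPM, against 66754 ± 5770 in fibroblast libraries. The part of other cells in these levels was not tested. Mki67, which encodes the Ki-67 protein that coats mitotic chromosomes, stood at 282 to 538 CPM in cardiomyocytes, 404 to 522 in fibroblasts, 464 to 598 in endothelial cells and 384 to 464 in leukocytes. All of these ranges overlapped, those of leukocytes and endothelial cells only barely, and Mki67 was called between no pair of populations. Between fibroblasts and endothelial cells limma called 0 of the 40 genes (52.3% of all genes tested were called; 0 of 40 also at an unadjusted p under 0.05, with edgeR and with DESeq2), with a median log2 difference of 0.01 against 0.00 over all genes. The count was 1 without fibroblast P1 sham replicate 2, and 2 with a replicate block within age and operation, an alternative chosen after seeing the data.

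Neonatal cardiomyocytes had 8 of the 40 genes called higher than in each other population, near the share of all genes (15.7%). These were the kinase gene Aurka, Cdca8 of the passenger complex, the checkpoint gene Mad2l1, Cenpa, the kinetochore genes Spc24 and Spc25, and the spindle gene Hmmr. The other was Ube2c, which feeds ubiquitin to the anaphase promoting complex. None of the 40 was highest in fibroblasts (13.7% of all genes), leukocytes (10.6%) or endothelial cells (10.1%). Cenpa, the histone variant that marks the centromere, was at 78.3 ± 8.59 CPM in cardiomyocytes and 45.6 ± 3.70 in fibroblasts (0.77 ± 0.16, adjusted p = 4.2e-05; differences are on the log2(CPM + 0.5) scale with their standard error). A fold of at least 2 was reached by 2 of the 8, and the same replicate block gave 14 genes in place of 8.

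**Figure D2:**
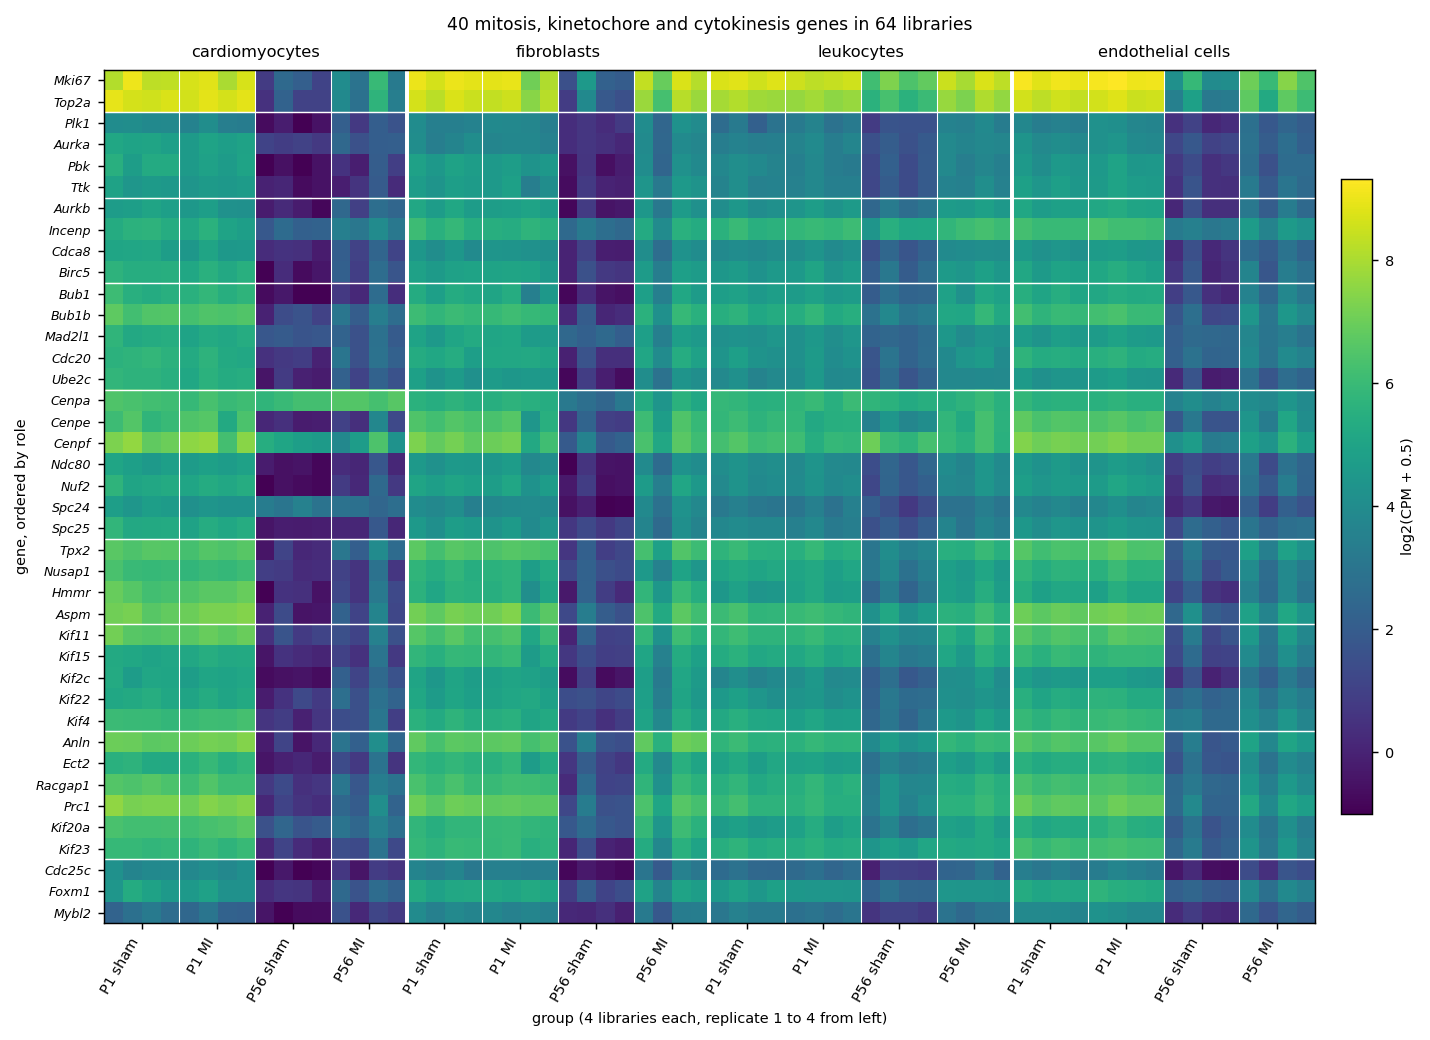
Level of the 40 genes (rows, ordered by role) in the 64 libraries (columns, 4 per group), as log2(CPM + 0.5) on a colour scale from dark (low) to yellow (high). P56 sham columns are darker than P1 columns in every population, least so in leukocytes, and the Cenpa row stays light in adult cardiomyocytes.

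By P56 the level had fallen in every population, to the smallest share of its neonatal level in fibroblasts and cardiomyocytes and to the largest in leukocytes. Adult sham sums were 144 ± 12.1 CPM in cardiomyocytes (4.77% of the P1 sham mean), 88.8 ± 55.5 in fibroblasts (3.33%), 190 ± 98.2 in endothelial cells (7.11%) and 602 ± 124 in leukocytes (32.8%). Genes called lower with age numbered 39 of 40 in cardiomyocytes (37.0% of all genes tested were called lower), 40 of 40 in fibroblasts (32.2%), 38 of 40 in leukocytes (34.5%) and 40 of 40 in endothelial cells (29.3%), and 0 were called higher. The median log2 difference of the members was -5.49 in cardiomyocytes against -0.09 over all genes, -4.66 against 0.03 in fibroblasts, -1.93 against -0.01 in leukocytes and -3.65 against 0.05 in endothelial cells.

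Markers of other cell types also differed with age. In cardiomyocytes 8 of 9 fibroblast markers were called lower, with sums of 2843 to 5884 CPM at P1 and 359.8 to 992 CPM at P56, and 7 of 9 endothelial markers, with sums of 2267 to 3619 and 1000.0 to 1582 CPM. Neutrophil markers (7 of 7 called lower) summed there to 108 to 615 CPM at P1 and 0.283 to 2.98 CPM at P56 and erythroid markers (5 of 6) to 365 to 650.3 CPM at P1 and 3.01 to 26.3 CPM at P56. In leukocytes 9 of 9 endothelial markers were called lower, at 3579 to 4207 CPM at P1 and 375 to 555 CPM at P56, and 7 of 7 neutrophil markers, at 1516 to 3035 CPM at P1 and 6.69 to 51.3 CPM at P56. Cardiomyocyte markers were called higher with age in the sorted populations, 9 of 10 in fibroblasts (231 to 418 CPM at P1 and 2659 to 5722 CPM at P56), 9 of 10 in leukocytes and 10 of 10 in endothelial cells. The part of these cells in the falls was not tested.

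Top2a, the topoisomerase that untangles sister chromatids, had the deepest fall in cardiomyocytes on the log2(CPM + 0.5) scale. Falls and rises are ranked on this scale throughout, and it understates those of genes with few reads. It was at 488, 403, 377 and 420.5 CPM in the P1 sham libraries and at 0.869, 4.25, 1.55 and 1.54 CPM at P56. Every adult library was far below every neonatal one (-7.53 ± 0.43, adjusted p = 5.2e-11). Mki67 went from 363 ± 117 to 1.24, 5.28, 3.81 and 1.61 CPM in the 4 adult libraries, again without overlap (-6.83 ± 0.50, adjusted p = 1.0e-09). Prc1, which bundles microtubules of the central spindle, went from 163 ± 19.7 to 0.987 ± 0.433 CPM (-6.81 ± 0.32).

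The kinases fell with them, as did the chromosomal passenger complex, which corrects faulty attachments of chromosomes to the spindle. Plk1, the kinase of mitotic entry and spindle poles, was at 15.6, 16.4, 14.4 and 14.2 CPM in neonatal and at 0.124, 0.377, 0 and 0.210 CPM in adult sham cardiomyocytes. The adult values are 0 to 4 reads. Aurkb, the kinase of the complex, went from 28.3 ± 2.81 to 0.365 ± 0.241 CPM (-5.10 ± 0.31), and Birc5, its survivin subunit, from 44.9 ± 3.28 to 0.289 ± 0.331 CPM (-5.93 ± 0.31). Incenp, the scaffold, fell by less, from 45.2 ± 5.20 to 4.24 ± 1.07 CPM (-3.29 ± 0.22).

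Of the checkpoint genes, Bub1, a kinase that recruits the checkpoint to kinetochores, was at 66.4, 44.6, 40.5 and 44.5 CPM in neonatal and at 0.124, 0.283, 0 and 0 CPM in adult sham cardiomyocytes. Bub1 was 1 of 7 members with at most 3 reads in all 4 adult sham cardiomyocyte libraries, with Pbk, Ndc80, Nuf2, Kif2c, Cdc25c and Mybl2. Their fold changes depend on the pseudocount, so their levels or reads are given in place of a fold. Neonatal sham cardiomyocyte libraries had 315 to 1136 reads of Pbk, 301 to 989 of Kif2c, 142 to 447 of Cdc25c and 77 to 258 of Mybl2. The adult sham libraries had 0 to 3, 1 to 2, 0 to 3 and 0 to 2 reads in the same order. Cdc20, the activator of the anaphase promoting complex, went from 51.7 ± 3.62 to 0.951 ± 0.356 CPM (-5.20 ± 0.27). Cdc20, Cdca8, Ube2c, Nusap1, Kif4, Prc1, Kif20a and Cdc25c each overlap a protein-coding gene on the opposite strand. Whether the counting used strand is not stated in the labels, so reads of such neighbours cannot be told apart from theirs: Elovl1 beside Cdc20 was at 14.5 CPM in adult sham cardiomyocytes and Cdc23 beside Kif20a at 54.5 CPM. Foxm1 overlaps the protein-coding genes Tex52 and Gm44596 on its own strand.

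Spindle and cytokinesis genes fell likewise in cardiomyocytes. Tpx2, which activates Aurora A and seeds spindle microtubules, went from 96 ± 6.80 to 0.811 ± 0.623 CPM (-6.31 ± 0.32), and Kif11, the kinesin that pushes the spindle poles apart, from 107 ± 21.5 to 1.62 ± 0.816 (-5.72 ± 0.38). Anln, the anillin scaffold of the contractile ring, went from 116 ± 10.9 to 0.735 ± 0.663 CPM (-6.69 ± 0.34). Ect2, the exchange factor that switches on RhoA at the cleavage plane, fell by 5.57, and Racgap1 and Kif23, which form the centralspindlin complex, fell by 5.74 and 5.50. The 6 cytokinesis genes together kept 1.39% of their P1 sham level in cardiomyocytes, 3.79% in fibroblasts, 7.46% in endothelial cells and 35.8% in leukocytes.

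The transcription factors of the programme, Foxm1 and Mybl2 (B-MYB), were lower in adults in all 4 populations. Foxm1 went from 28.4 ± 8.59 to 0.789 ± 0.275 CPM in cardiomyocytes (-4.47 ± 0.26), from 35.5 ± 4.17 to 2.27 ± 1.13 in fibroblasts (-3.78 ± 0.26), from 25.8 ± 3.96 to 5.13 ± 1.19 in leukocytes (-2.23 ± 0.13) and from 36.7 ± 3.29 to 3.77 ± 0.731 in endothelial cells (-3.14 ± 0.20). Mybl2 was among the deepest falls in leukocytes (-2.43 ± 0.15), with the chromosome-arm kinesin Kif4 (-2.54 ± 0.17) and Bub1 (-2.38 ± 0.19). In fibroblasts the deepest were Top2a (-6.49 ± 0.49), Mki67 (-6.31 ± 0.55) and Bub1 (-5.57 ± 0.38), and in endothelial cells Top2a (-4.76 ± 0.33), Kif11 (-4.52 ± 0.38) and Mki67 (-4.51 ± 0.35).

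Cenpa, Spc24 and Cenpf, all of the centromere and kinetochore, had the smallest differences with age in cardiomyocytes. Cenpa was at 88.7, 81.7, 73.4 and 69.5 CPM at P1 and 53.5, 62.4, 74.6 and 74.5 CPM at P56. The groups overlapped, and Cenpa was not called (-0.25 ± 0.15, adjusted p = 0.161). Spc24, a subunit of the NDC80 complex that grips microtubules, was at 9.68, 7.64, 11 and 7.22 CPM in adults against 21.2 to 27.1 at P1 (-1.46 ± 0.17, adjusted p = 5.7e-07). Its partner subunits were at 0.0701 to 0.372 CPM (Ndc80) and 0 to 0.189 CPM (Nuf2) in the same adult libraries, against 23.4 to 32.6 and 32.5 to 51.4 at P1. Cenpf, a large protein of the outer kinetochore, was at 43.2, 33.4, 27.1 and 24.3 CPM against 110.1 to 201 (-2.20 ± 0.42, adjusted p = 0.00014). The 7 centromere and kinetochore genes together kept 25.1% of their P1 sham level in cardiomyocytes, 4.93% in fibroblasts, 11.1% in endothelial cells and 63.9% in leukocytes. The cardiomyocyte share rests on the same scaling. Of their summed 108 CPM in adult sham cardiomyocytes, Cenpa made up 66.2 CPM and Cenpf 32 CPM.

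Cenpa and Spc24 were the 2 of 40 genes called higher in adult sham cardiomyocytes than in each other population (26.0% of all genes were). Cenpa was at 66.2 ± 10.3 CPM there, 6.98 ± 1.72 in fibroblasts, 13.2 ± 2.33 in endothelial cells and 45.8 ± 5.93 in leukocytes. Its difference was 3.17 ± 0.16 against fibroblasts (adjusted p = 4.0e-25) and 0.52 ± 0.16 against leukocytes (adjusted p = 0.00323). No cardiomyocyte library overlapped those of the others, the nearest values being 53.5 CPM in cardiomyocytes and 53.3 in leukocytes. Leukocytes had 953, 1200, 889 and 1004 Cenpa reads of 24.7, 23.5, 20.3 and 23.1 M, against 431 to 1063 in cardiomyocytes. The order against leukocytes thus rests on the scaling of the CPM. Cenpa (ENSMUSG00000029177) lies at chr5:30666777-30674830 on the plus strand and Spc24 (ENSMUSG00000074476) at chr9:21755442-21760286 on the minus strand of GRCm38.

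In leukocytes Cenpa and Cenpf were the 2 genes not called lower in adults. Cenpa was at 45.8 ± 5.93 CPM against 50.9 ± 6.45 at P1 (-0.15 ± 0.14, adjusted p = 0.345). Cenpf was at 130.2, 63.8, 51.8 and 77.2 CPM at P56 against 67 to 94.4 at P1 (-0.02 ± 0.24, adjusted p = 0.956). The cardiomyocyte marker sums of those adult leukocyte libraries were 198303, 75948, 71875 and 96760 CPM, with the highest value in the library that had the highest Cenpf and the lowest in the library that had the lowest. The part of cardiomyocyte RNA in these levels was not tested.

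**Figure D3:**
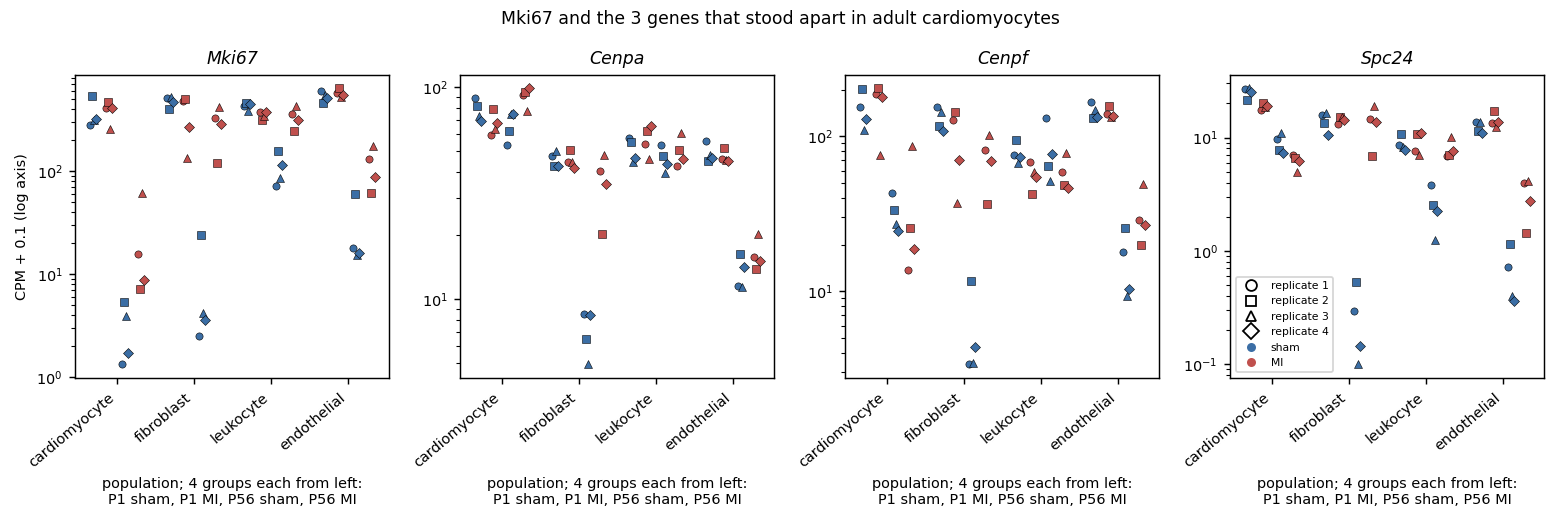
Level of Mki67, Cenpa, Cenpf and Spc24 in each library (CPM + 0.1, log axis) by population, with P1 sham, P1 MI, P56 sham and P56 MI from the left within each. Symbols give the replicate number, blue is sham and red is MI. In adult cardiomyocytes Mki67 lies far below its P1 level while Cenpa, in CPM as scaled by the authors, overlaps its P1 level.

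How much mitotic RNA each population held in the heart was not measured, but adult sham summed levels were highest in leukocyte libraries. Of the 40 genes, 30 were called higher there than in each other population (10.0% of all genes), and none was highest in fibroblasts (14.2%) or endothelial cells (11.8%). Mki67 was at 71.2, 158, 86.2 and 114 CPM in adult sham leukocytes. All 4 values lay above those of every other adult sham library, the nearest being an endothelial library at 60.5 CPM. The change with age itself differed by population: it was less negative in leukocytes than in cardiomyocytes for 38 of 40 genes (27.8% of all genes), than in fibroblasts for 40 (22.3%) and than in endothelial cells for 37 (17.3%). For Mki67 these differences of change were 4.76 ± 0.66, 4.25 ± 0.66 and 2.44 ± 0.66.

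After infarction at P1 few differences were found. The sum was 3015 ± 351 CPM in cardiomyocytes, 2257 ± 542 in fibroblasts, 2893 ± 268 in endothelial cells and 1680 ± 121 in leukocytes, each overlapping its sham group. In either direction limma called 0 of 40 genes in cardiomyocytes (0.343% of all genes; 1 of 40 at an unadjusted p under 0.05), 0 in fibroblasts (2.37%; 0 of 40) and 0 in endothelial cells (0.216%; 0 of 40). The median differences of the members were -0.08, -0.12 and 0.13. DESeq2 and edgeR on recovered reads also gave 0 in these 3 populations.

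In neonatal leukocytes 45.2% of all genes were called after MI and 1 of the 40 members, Mybl2, at 8.05, 11.2, 8.69 and 8.86 CPM after sham and 6.52, 7.29, 6.03 and 7.45 CPM after MI (-0.40 ± 0.15, adjusted p = 0.0421). The lower count became 0 with no filter, a pseudocount of 0.1, quantile normalization, the replicate block or without the libraries rich in 18S RNA, and also without P1 sham replicate 2 or 4 or P1 MI replicate 1, 2 or 3. It was 1 with edgeR, 3 with DESeq2 and 8 when only the groups compared were fitted. Leukocyte markers summed to 2373 to 3529 CPM after sham and 8738 to 10066 CPM after MI at P1, while the cardiomyocyte marker sum was 16879 to 22624 and 5123 to 14457 CPM. Endothelial markers (9 of 9 called lower) summed to 3579 to 4207 CPM after sham and 423 to 753 CPM after MI, and mural markers (5 of 6 called lower) to 1282 to 1660.0 and 208 to 424 CPM. The endothelial marker sum of neonatal sham endothelial libraries was 8198 to 10108 CPM. Their part in the leukocyte values was not tested.

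The size of change that 4 libraries could leave uncalled at P1 depends on the standard errors. These reached 0.50 in cardiomyocytes, 0.55 in fibroblasts, 0.38 in endothelial cells and 0.24 in leukocytes. The largest differences at P1 that were not called do not mark that size. They included 0.31 ± 0.34 for Anln and -0.42 ± 0.31 for Aurkb in cardiomyocytes, and -0.68 ± 0.44 for the kinetochore motor gene Cenpe in fibroblasts. In endothelial cells Plk1 had the largest, 0.42 ± 0.21, and in leukocytes too, 0.50 ± 0.23.

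Infarction at P56 was followed by higher levels in all 4 populations, most of all in fibroblasts. Genes called higher after MI numbered 30 of 40 in cardiomyocytes (8.66% of all genes tested were called higher), 40 of 40 in fibroblasts (24.8%), 38 of 40 in leukocytes (30.7%) and 39 of 40 in endothelial cells (12.5%), and limma called 0 lower. On recovered reads edgeR and DESeq2 each called 1 lower in cardiomyocytes (Spc24) and 0 in the other populations. The median log2 difference of the members was 1.61 in cardiomyocytes against 0.08 over all genes, 4.05 against -0.03 in fibroblasts, 1.82 against 0.02 in leukocytes and 1.78 against 0.02 in endothelial cells.

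In adult fibroblasts the sum went from 88.8 ± 55.5 to 1732 ± 704 CPM, or 64.9% of the P1 sham mean. Mki67 was at 2.39, 23.8, 4.09 and 3.51 CPM after sham and 330.2, 121, 421 and 288 CPM after MI. The lowest MI library, replicate 2, was still above the highest sham library, also replicate 2 (5.46 ± 0.55, adjusted p = 8.7e-07). Top2a (5.46 ± 0.49) and Bub1 (4.90 ± 0.38) had the next largest rises. Anln went from 2.52, 10.0, 2.65 and 2.27 to 109.6, 46.3, 129.7 and 118 CPM, and its mean after MI was close to the 98.7 ± 13.1 CPM of neonatal sham fibroblasts. Cardiomyocyte markers were lower after MI in these libraries (10 of 10 called), with sums of 2659 to 5722 CPM after sham and 226 to 989 CPM after MI, and 3 of 8 leukocyte markers were called higher (15.3 to 33.9 and 22.3 to 60.9 CPM). Their part in the rise was not tested.

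Every other role rose in fibroblasts as well. Plk1 went from 0.942 ± 0.217 to 13.6 ± 6.08 CPM, Aurkb from 0.453 ± 0.519 to 18.1 ± 7.21 and Cdc20 from 1.18 ± 0.995 to 29.9 ± 10.8. Kif23 went from 0.947 ± 0.908 to 32.9 ± 14.6 CPM and Foxm1 from 2.27 ± 1.13 to 25.1 ± 8.84. The smallest rises were those of Mad2l1, Cenpa and Incenp (2.10 ± 0.25, 2.24 ± 0.21 and 2.30 ± 0.26), which were also the 3 with the smallest falls with age in fibroblasts.

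The rise after adult MI was larger in fibroblasts than in each other population by a test of the difference. It exceeded that in cardiomyocytes for 39 of 40 genes (10.4% of all genes; 21 of 40 by edgeR on recovered reads), that in leukocytes for 37 (18.1%) and that in endothelial cells for 40 (5.49%). For Mki67 these differences were 3.07 ± 0.66, 3.78 ± 0.66 and 3.27 ± 0.66.

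**Figure D4:**
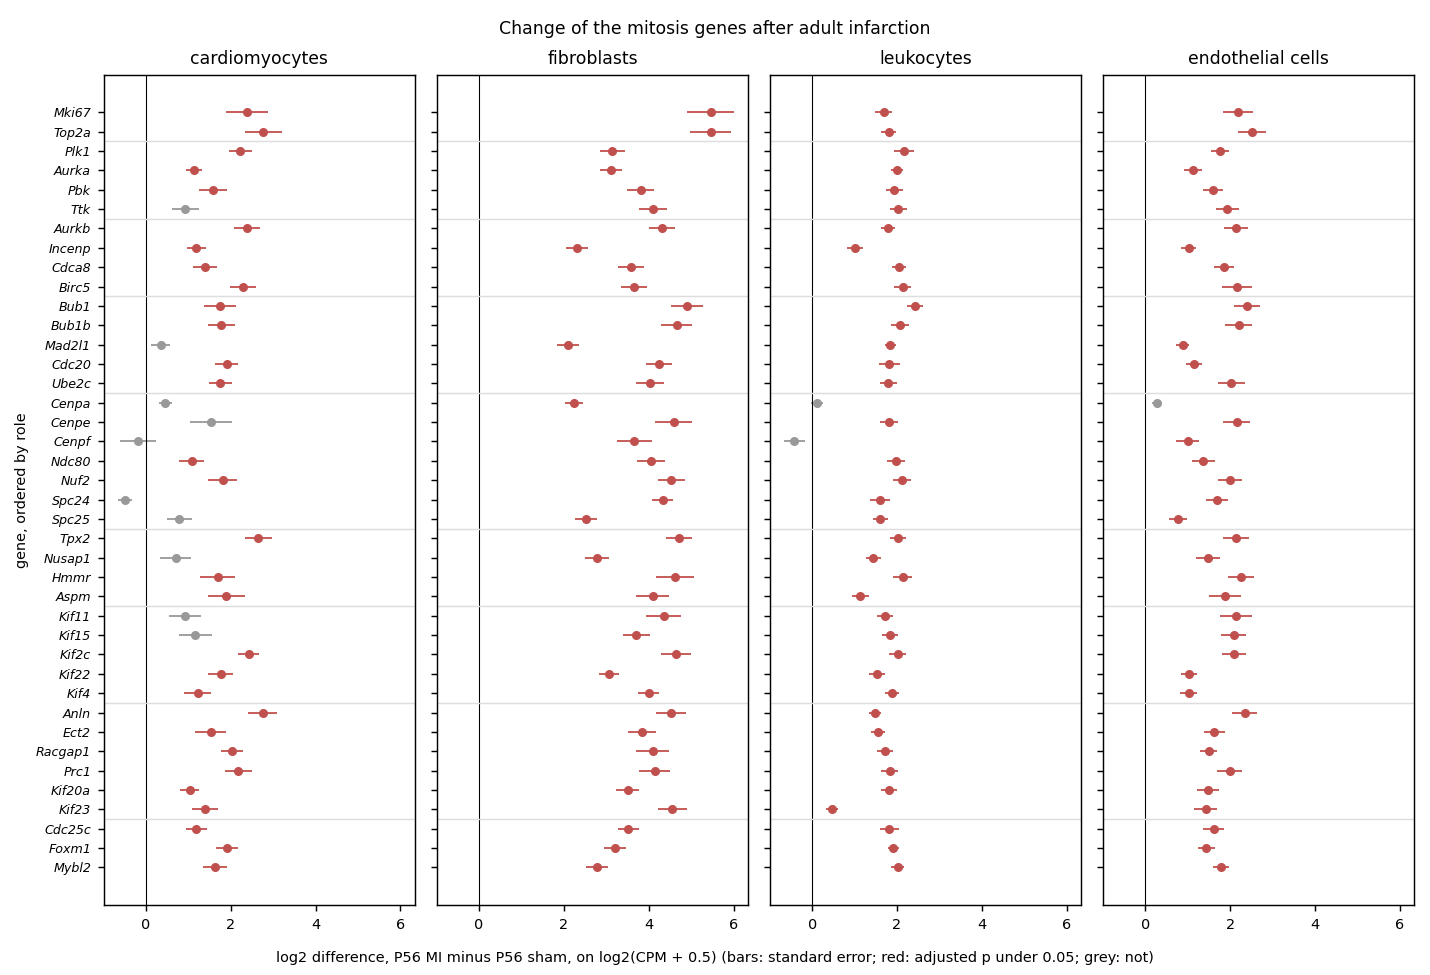
Log2 difference between P56 MI and P56 sham for each gene (points, bars give the standard error) in the 4 populations, on the log2(CPM + 0.5) scale. Red points passed an adjusted p of 0.05 and grey points did not. All 40 fibroblast points are red and lie between 2.10 and 5.46, and Cenpa is grey in the other 3 populations.

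Adult leukocytes after MI summed to 1638 ± 305 CPM, 89.4% of the P1 sham mean. Mki67 was at 359, 247, 428 and 317 CPM, each above all sham libraries (1.69 ± 0.20). Bub1 rose most, from 4.80 ± 1.27 to 28.2 ± 7.45 CPM (2.42 ± 0.19), followed by Plk1 (2.17 ± 0.23) and Birc5 (2.13 ± 0.21). Kif23 had the smallest called rise (0.46 ± 0.14), with overlapping groups. Cenpa (0.12 ± 0.14) and Cenpf (-0.42 ± 0.24) were not called. The cardiomyocyte marker sum was 71875 to 198303 CPM after sham and 4949 to 17788 CPM after MI. Endothelial markers (9 of 9 called lower) summed to 375 to 555 and 134 to 220.5 CPM and mural markers (6 of 6 called lower) to 635 to 1148 and 74.2 to 164 CPM. Their part in the leukocyte values was not tested.

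Adult endothelial cells summed to 157, 337, 129 and 139 CPM after sham and 803, 362, 900.2 and 552 CPM after MI, and the MI mean was 24.5% of the P1 sham mean. Top2a (2.52 ± 0.33), Bub1 (2.40 ± 0.30) and Anln (2.34 ± 0.30) rose most. Mki67 was at 17.9, 60.5, 15.1 and 16.1 CPM after sham and 130.0, 61.9, 175 and 88 CPM after MI (2.19 ± 0.35). Replicate 2 was the highest sham library and the lowest MI library, and these were nearly equal. Cenpa was not called (0.28 ± 0.12, adjusted p = 0.123). Leukocyte markers (6 of 8 called higher) summed in these libraries to 34.7 to 47.3 CPM after sham and 115 to 293 CPM after MI, with the highest sum in MI replicate 3, which also had the highest mitotic sum, and the lowest MI sum in replicate 4, where the mitotic sum was lowest in replicate 2. Cardiomyocyte markers (6 of 10 called lower) summed to 8684 to 19894 and 3681 to 8205 CPM, and mural markers (4 of 6 called lower) to 2809 to 3737 and 1210.0 to 1891 CPM. Their part in the rise was not tested.

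In adult cardiomyocytes the sum went from 132, 159, 147 and 136 CPM to 278, 209, 545 and 244 CPM. Every MI library was above every sham library, and the MI mean was 10.6% of the P1 sham mean. Mki67 was at 15.5, 7.09, 62 and 8.68 CPM after MI against 1.24 to 5.28 after sham (2.39 ± 0.50, adjusted p = 0.00374). Top2a (2.77 ± 0.43), Anln (2.75 ± 0.34) and Tpx2 (2.65 ± 0.32) rose most. Plk1 was at 3.88, 1.13, 3.80 and 2.60 CPM after MI.

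All 6 cytokinesis genes rose in adult cardiomyocytes, with a median of 1.77. Racgap1 went from 1.25 ± 0.505 to 6.88 ± 2.84 CPM, Prc1 from 0.987 ± 0.433 to 7.35 ± 6.17 and Ect2 from 0.417 ± 0.150 to 2.84 ± 2.96. All 4 passenger complex genes rose, with a median of 1.84. Birc5 went from 0.289 ± 0.331 to 3.50 ± 1.92 CPM and Incenp from 4.24 ± 1.07 to 10.5 ± 3.35. Foxm1 went from 0.789 ± 0.275 to 4.46 ± 1.38 CPM (1.92 ± 0.26).

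Of the 7 centromere and kinetochore genes 2 were called higher in adult cardiomyocytes after MI: Ndc80, at 0.743, 0.564, 2.95 and 0.607 CPM, and Nuf2, at 1.24, 0.645, 5.22 and 1.13 CPM. Cenpa was at 92.5, 94.7, 76.9 and 99 CPM, above all sham libraries, but was not called (0.46 ± 0.15, adjusted p = 0.0696). Spc24 was lower after MI without overlap, at 6.93, 6.53, 4.85 and 6.16 CPM, and was not called by limma (-0.49 ± 0.17, adjusted p = 0.0801). It was called lower by edgeR (adjusted p = 0.0356) and DESeq2 (0.0131) on recovered reads and by limma after median-of-ratios scaling (0.0437), within a range of 0.0131 to 0.315 over all alternatives. Cenpf was at 13.7, 25.6, 86.4 and 18.7 CPM, with 1 library far above the sham libraries and the others below most of them. The remaining genes not called were Ttk, Mad2l1, Cenpe, Spc25, Nusap1, Kif11 and Kif15.

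Markers of other cell types moved with the rise in adult cardiomyocytes. The sum of 8 leukocyte markers was 48.2, 98.8, 191 and 64.1 CPM after sham and 414, 279, 701 and 389 CPM after MI. The sum of 9 fibroblast markers was 359.8, 721, 992 and 359.8 CPM after sham and 2289, 1305, 2907 and 2039 CPM after MI. MI replicate 3 was highest and replicate 2 lowest in both sums and in the mitotic sum. The sum of 9 endothelial markers was 1000 to 1582 CPM after sham and 846 to 1147 CPM after MI, and no marker of these 3 lists was at 0 throughout either group. Their part in the rise was not tested. Leaving out each library in turn gave 29 to 33 of 40 genes called higher, and fitting only the 2 groups compared gave 18.

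**Figure D5:**
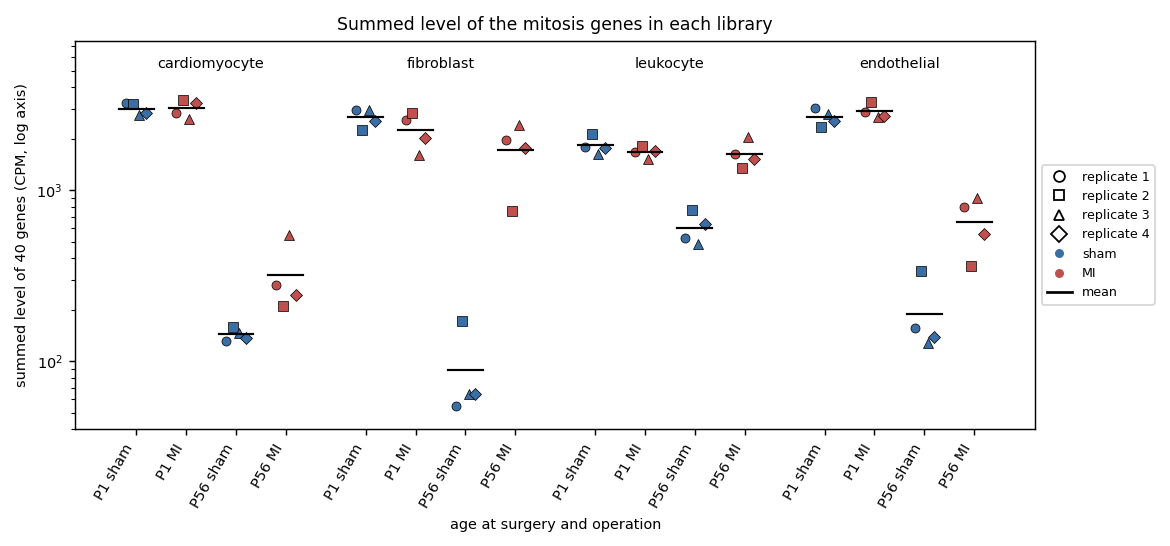
Summed level of the 40 genes in each library (CPM, log axis) by population, age and operation. Symbols give the replicate number, blue is sham, red is MI and lines mark means. Adult fibroblasts lie at 54.7 to 172 CPM after sham and 758 to 2423 CPM after MI, and replicate 2 is the highest P56 sham and the lowest P56 MI library in all 4 populations.

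Libraries with the same replicate number in different populations tended to stand alike, but not after sham at P1. After sham at P56 replicate 2 had the highest sum in all 4 populations. After MI at P56 replicate 3 had the highest and replicate 2 the lowest in all 4, and replicate 2 was the lowest MI library for 40 of 40 genes in fibroblasts, 39 in endothelial cells, 33 in cardiomyocytes and 25 in leukocytes. After MI at P1 replicate 2 was the highest and replicate 3 the lowest in all 4. The labels do not say what a shared number means.

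After MI, adult leukocytes lay near their neonatal counterparts. By the median difference adult fibroblasts lay somewhat below theirs, and adult cardiomyocytes and endothelial cells lay further below theirs. Genes called lower in infarcted adults than in infarcted neonates numbered 39 of 40 in cardiomyocytes (34.6% of all genes), 40 in endothelial cells (23.1%), 4 in fibroblasts (18%) and 0 in leukocytes (14.0%; 0 also at an unadjusted p under 0.05, with edgeR and with DESeq2). Medians in that order were -3.60, -2.08, -0.51 and -0.05. In fibroblasts 11 of the 40 genes, in either direction, had an unadjusted limma p under 0.05. The 4 fibroblast genes called lower were Pbk (-0.90 ± 0.32), Spc25 (-0.81 ± 0.26), Nusap1 (-0.97 ± 0.28) and Mybl2 (-0.68 ± 0.26). Their number was 0 without the libraries over 5% of 18S RNA and 0 at a fold of at least 2, 1 when only the groups compared were fitted, and 2 with DESeq2 or a pseudocount of 0.1. It was 1 without P1 MI replicate 2 or P56 MI replicate 2, 2 without P1 MI replicate 1 or 4, 7 without P56 sham replicate 2 and 11 without P56 MI replicate 3.

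Cenpa was the 1 gene called higher in adult than in neonatal cardiomyocytes after MI, at 76.9 to 99 against 59.4 to 78.6 CPM with overlap (0.43 ± 0.15, adjusted p = 0.0186). The call was absent without P1 MI replicate 1 or P56 MI replicate 4, with edgeR or DESeq2, and under median-of-ratios scaling or quantile normalization. In reads Cenpa had 1121, 1175, 1459 and 1141 in infarcted adults, of 24.4, 26.7, 27.5 and 25.1 M. In infarcted neonates it had 1668, 2282, 1748 and 1515, of 24.9, 25.4, 26.6 and 23.2 M. The direction thus rests on the scaling of the CPM.

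The response to MI was larger at P56 than at P1, by a test of the difference itself, for 40 of 40 genes in fibroblasts (16.2% of all genes), 38 in leukocytes (23.7%), 32 in endothelial cells (3.39%) and 19 in cardiomyocytes (1.69%). In cardiomyocytes the largest were Aurkb (2.81 ± 0.43), Tpx2 (2.77 ± 0.46) and Top2a (2.72 ± 0.61), Foxm1 was at 2.24 ± 0.37, and Mki67 missed the threshold (2.29 ± 0.70, adjusted p = 0.108). The cardiomyocyte count was 12 without P1 sham replicate 3, and the endothelial count was 21 without P1 sham replicate 3 and 20 without P56 sham replicate 3. Mki67 differed by 6.10 ± 0.77 in fibroblasts, 2.07 ± 0.49 in endothelial cells and 1.98 ± 0.29 in leukocytes. In leukocytes the genes not called were Cenpa (-0.03 ± 0.20) and Cenpf (0.05 ± 0.34).

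Among populations of the infarcted adult heart, limma called 5 of 40 genes between fibroblasts and leukocytes (59.5% of all genes were called). Cdc20 (0.61 ± 0.27), Spc24 (0.66 ± 0.24) and the cytokinesis kinesin Kif20a (0.56 ± 0.25) were higher in fibroblasts, and Cenpa (-0.53 ± 0.16) and Incenp (35.1 ± 13.5 against 65.8 ± 8.76 CPM) were higher in leukocytes. The count was 11 without fibroblast P56 MI replicate 2 and 3 without fibroblast P56 MI replicate 1, 3 or 4 or leukocyte P56 MI replicate 1, 2 or 4. All 40 genes were called higher in fibroblasts than in endothelial cells (28.8% of all genes), and all 40 in leukocytes than in endothelial cells (31.1%).

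Genes called highest in a single population after adult MI numbered 1 in cardiomyocytes, Cenpa (26.3% of all genes), 3 in fibroblasts, Cdc20, Spc24 and Kif20a (12.2%), 1 in leukocytes, Incenp (12.5%), and 0 in endothelial cells (13.9%). The fibroblast number was 10 without fibroblast P56 MI replicate 2, 0 without fibroblast replicate 3, and 1 without fibroblast replicate 1 or 4 or leukocyte P56 MI replicate 1, 2 or 4. The leukocyte number was 2 without fibroblast P56 MI replicate 3. Cenpa had 1121, 1175, 1459 and 1141 reads in these cardiomyocyte libraries. In the leukocyte libraries it had 731, 1177, 1663 and 1170 reads, of 16.7, 19.8, 21.7 and 21.0 M. Its place above leukocytes thus rests on the scaling of the CPM.

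Further mitotic genes were read from lists of other kinetochore, spindle, chromosome and cytokinesis genes and of CDK1 with its cyclins and switches, 93 of which were tested. With age 86 of the 93 were called lower and 2 higher in cardiomyocytes, 89 and 1 in fibroblasts, 80 and 3 in leukocytes, and 89 and 1 in endothelial cells. Over all genes the shares called lower and higher with age were 37.0% and 33.3%, 32.2% and 34.8%, 34.5% and 32.5%, and 29.3% and 33.6% in the same order. After MI at P56, 42 were called higher and 1 lower in cardiomyocytes, 86 and 1 in fibroblasts, 87 and 1 in leukocytes, and 72 and 0 in endothelial cells. Over all genes the shares called higher and lower were 8.66% and 1.03%, 24.8% and 25.2%, 30.7% and 28.8%, and 12.5% and 7.88% in the same order. Cdk1, the kinase that starts mitosis, fell with age by 6.68 in cardiomyocytes, 5.98 in fibroblasts, 4.64 in endothelial cells and 2.40 in leukocytes. After adult MI it rose by 2.41 ± 0.27, 5.09 ± 0.36, 2.34 ± 0.30 and 1.88 ± 0.17 in the same order.

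Core subunits of the anaphase promoting complex, the ligase that Cdc20 activates and Ube2c serves, were read beside them. Of 12 subunits, 0 were called after adult MI in cardiomyocytes and endothelial cells, and 4 were called higher in fibroblasts and 4 in leukocytes, with medians of 0.15 and 0.09. Of all genes 24.8% and 30.7% were called higher in these 2 populations, near the 4 of 12. Of 18 genes of the DREAM and E2F complexes, 2 were called higher after adult MI in cardiomyocytes, the activators E2f1 (1.82 ± 0.29) and E2f2 (1.45 ± 0.25). In fibroblasts 9 were called higher and 4 lower, with E2f8 (3.39 ± 0.24) and E2f7 (3.47 ± 0.26) at the smallest adjusted p. In leukocytes 10 were higher and 3 lower, and in endothelial cells 5 higher and 1 lower. Of all genes, 8.66% were called higher in cardiomyocytes. In fibroblasts 24.8% were called higher and 25.2% lower, in leukocytes 30.7% and 28.8%, and in endothelial cells 12.5% and 7.88%. The 2 of 18 higher in cardiomyocytes, the 4 lower in fibroblasts and the 1 lower in endothelial cells thus lay near the share of all genes.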

How the data were processed

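RNA libraries (Ribo-Zero Gold depletion, TruSeq Stranded, single 50-base reads) were made from sorted or Percoll-separated heart cells, per the labels' protocols. Trimmomatic, STAR, HTSeq and edgeR, with no version, and mm10, GRCm38 and GRCh38, with no role, are listed per the submitters' processing notes. The deposited values are a normalized signal per gene, CPM as scaled by the authors, in which every library's values were whole multiples of 1 read (100% within a tolerance of 0.01).

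The values were tested as log2(CPM + 0.5) with limma 3.58.1 (R 4.3.3, trended variance), 1 fit per population over its 4 groups, and 1 fit over all 16 groups for comparisons between populations. Genes with at least 1 CPM in at least 4 libraries were kept, 15461 to 16239 per population and 18344 over all. P-values were adjusted by Benjamini-Hochberg over all genes tested, and called means an adjusted p under 0.05. Differences of low genes are understated by the pseudocount. Alternatives were edgeR 4.0.16 and DESeq2 1.42.0 on the recovered reads, other scalings, filters, pseudocounts, a replicate block and leaving libraries out. The scripts were tested on simulated data. Of 96 pairs of replicates none was identical. The members and all gene lists were chosen with earlier results of these data known.

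Named genes were 19 members set as anchors, the 3 largest and 3 smallest differences of a contrast, and up to 2 called genes of other lists by smallest adjusted p. Same-numbered libraries within a population did not pair by the check used (3 to 8 of 24 correlations of deviations over 0.1). Between populations they did after sham at P56 (24 of 24 over 0.1, 0.118 to 0.415), and not throughout after MI at P56 (22 of 24), MI at P1 (14) or sham at P1 (9).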

Additional observations from a re-analysis of the deposited data

Results flagged for a closer look

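In 2 of the 16 groups the summed level of the 40 genes had a highest library whose gap to the next, divided by the range of the group, was above Dixon's 95% critical value for 4 libraries. These were adult sham fibroblasts (0.914, replicate 2 at 172 CPM against 54.7 to 64.8 CPM) and adult sham endothelial cells (0.865, replicate 2 at 337 CPM against 129 to 157 CPM). Chance flags about 1 in 20 groups. By single genes, 71 of 640 gene-by-group sets passed the same value.

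The change after MI differed between the ages by a test of the difference for 40 of 40 genes in fibroblasts, 38 in leukocytes, 32 in endothelial cells and 19 in cardiomyocytes. The change with age was less negative in leukocytes than in cardiomyocytes for 38 genes, than in fibroblasts for 40 and than in endothelial cells for 37. The change after adult MI was larger in fibroblasts than in cardiomyocytes for 39 genes, than in leukocytes for 37 and than in endothelial cells for 40.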

How the results depend on the processing

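Among 23227 values recomputed for contrasts within populations, no difference called in the main fit or in the alternative changed sign. Sign changes of differences called in neither were not counted. Of these values 22833 stayed on the same side of the threshold, and 817 of 860 alternative counts stayed within 1.5 times. The cause of the others was not tested. With a fold of at least 2, counts were 0 for fibroblast against leukocyte after adult MI, 0 for higher with age after MI in cardiomyocytes, 0 for lower with age after MI in fibroblasts, 0 for lower after MI at P1 in leukocytes, 2 for highest in P1 sham cardiomyocytes, 1 in P56 sham cardiomyocytes, and 0, 0 and 0 for highest in cardiomyocytes, fibroblasts and leukocytes after adult MI. Median-of-ratios scaling gave 3 for fibroblast against leukocyte, 1 for lower after adult MI in cardiomyocytes, 0 for higher with age after MI there and 1 for highest in fibroblasts. Quantile normalization gave 0 for higher with age after MI and 12 for the difference between ages in cardiomyocytes, 1 higher and 0 lower after MI at P1 in leukocytes, and 1 for highest in P56 sham cardiomyocytes. A pseudocount of 0.1 gave 2 for fibroblast against leukocyte, 2 for lower with age after MI in fibroblasts, 0 for lower after MI at P1 in leukocytes and 0 for highest in fibroblasts. No filter gave 0 for lower after MI at P1 in leukocytes. DESeq2 gave 1 lower after adult MI and 0 higher with age after MI in cardiomyocytes, 2 lower with age after MI in fibroblasts and 3 lower after MI at P1 in leukocytes. In edgeR the numbers were 1 and 0 for the same cardiomyocyte counts and 21 for the larger rise in fibroblasts than in cardiomyocytes. Fitting only the groups compared gave 18 higher after adult MI in cardiomyocytes, 1 lower with age after MI in fibroblasts and 8 lower after MI at P1 in leukocytes. Without libraries over 5% of 18S RNA, counts were 2 for fibroblast against leukocyte, 0 for lower with age after MI in fibroblasts, 0 for lower after MI at P1 in leukocytes and 0 for highest in fibroblasts.

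The replicate block within a population changed 1 count beyond 1.5 times, lower after MI at P1 in leukocytes, to 0. A replicate block within age and operation across populations, chosen after seeing the data, gave 2 for fibroblast against endothelial at P1 (0 without it), 8 for fibroblast against leukocyte, 14 for highest in P1 sham cardiomyocytes, 5 for highest in fibroblasts and 2 for highest in leukocytes after adult MI. It moved no other count by over 1.5 times.

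Leaving out single libraries gave 0 to 1 for higher with age after MI in cardiomyocytes, 12 to 24 for the difference between ages in cardiomyocytes and 20 to 38 in endothelial cells, 1 to 11 for lower with age after MI in fibroblasts, and 0 to 1 higher and 0 to 2 lower after MI at P1 in leukocytes. It gave 0 to 1 for lower after adult MI in leukocytes (1 without P56 sham replicate 3), 0 to 10 for highest in fibroblasts and 1 to 2 in leukocytes after adult MI, 0 to 1 for fibroblast against endothelial at P1 (1 without fibroblast P1 sham replicate 2) and 3 to 11 for fibroblast against leukocyte. Depth limits the 7 members with at most 3 reads in every adult sham cardiomyocyte library.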
